A study of Mus musculus with 6 samples.

Results

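The genes described here are Asns, Psat1, Phgdh, Psph, Shmt2, Mthfd2, Aldh1l2, Pck2, Slc7a5 and Slc3a2, which act in the synthesis of serine and asparagine, in mitochondrial one-carbon metabolism and in amino acid transport. They were taken by symbol, and all 10 were found among the 55536 genes of the deposited table. RNA came from 6 liver samples of C57BL/6 mice aged 8 to 10 weeks, all floxed at Vmp1, so that the Cre enzyme can cut out a stretch flanked by loxP sites. All mice received an intravenous AAV8 virus whose cargo is driven by the hepatocyte-active TBG promoter, and livers were taken after 2 weeks. The cargo was empty (null) in the 3 WT samples, called controls here, and Cre in the 3 samples named H-VMP1 KO. Only hepatocytes are targeted, and the other liver cells of the H-VMP1 KO samples are not. VMP1 sits in the endoplasmic reticulum membrane and has roles in autophagy and in the handling of lipids and lipoproteins, and the comparison asks how liver expression of these metabolic genes differs between the groups.

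Serine is built from a glycolytic intermediate, 3-phosphoglycerate, by PHGDH, PSAT1 and PSPH in turn. In mitochondria SHMT2 splits serine into glycine and a carbon unit carried by folate, MTHFD2 oxidises that unit, and ALDH1L2 releases it as carbon dioxide while making NADPH. ASNS makes asparagine from aspartate, PCK2 makes phosphoenolpyruvate inside mitochondria, and SLC3A2 with SLC7A5 forms a surface exchanger for large neutral amino acids. Transcription of many of these genes is raised by ATF4, the transcription factor of the integrated stress response, which binds composite C/EBP-ATF elements in DNA.

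Values are TPM, a transcript abundance corrected for length and adding up to an equal sum per library, so levels of different genes can be compared. The table keeps no read numbers, so the depth behind a value is unknown. Fold changes are differences on the log2(TPM + 1) scale, H-VMP1 KO minus control, ± SE, with n = 3 libraries per group and adjusted p from limma with Benjamini-Hochberg adjustment over all genes fitted. The added 1 understates the change of genes near or under 1 TPM. The labels do not say whether the samples of a group are separate animals, so the p-values reflect only how far these samples differ, and that spread may be technical.

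The targeted gene did not bear out the labels. Vmp1 was at 70.7, 96.5 and 88.6 TPM in controls and at 157, 136 and 137 TPM in the H-VMP1 KO libraries. A gene-level value also counts reads from exons left after Cre, so it is no check of the deletion, and the H-VMP1 KO libraries are called the labelled knockouts below. Most genes were higher in those libraries: the median log2 fold change of the 12796 genes that reached 1 TPM in 3 or more libraries was 0.77. Median-of-ratios scaling, built so that the typical gene does not change, lowered fold changes by a median of 0.81, and Vmp1 turned from 0.75 to -0.16 with it (adjusted p = 0.25, limma). Values with that scaling are therefore given for the 10 genes. Other genes with a printed fold change have them where the quotient of the 2 log2 fold changes is over 1.5, or where the call changes. Where none is given the log2 fold change still moved, such as from -3.66 to -4.57 for Pck1 and from 2.48 to 1.67 for Asrgl1. Marker genes of other cells moved too. In a fit without the filter on low values, which tests every marker in the table, all 19 macrophage, 13 endothelial and 15 stellate or fibroblast markers rose as deposited, and 14 of 17 hepatocyte markers fell. There 44.3% of all genes were higher and 5.7% lower. Of the macrophage markers 7, and of the stellate markers 3, were under 1 TPM in every control. So were 7 of the 13 proliferation markers past the filter. Macrophage markers summed to 158 to 269 TPM in controls and 1762 to 2226 TPM in the labelled knockouts, and proliferation markers to 31.1 to 36.7 and 100.7 to 138 TPM, with 13 of 14 higher in that fit. T and natural killer cell markers summed to 2.7 to 3.38 and 18.1 to 29.9 TPM, with all 15 higher in that fit, though only 6 passed the filter and those 6 were under 1 TPM in every control. Hepatocyte markers still summed to 38588 to 41923 TPM in the labelled knockouts, against 79304 to 102508 TPM in controls. With the filter and median-of-ratios scaling, 19 macrophage, 10 endothelial and 15 stellate or fibroblast markers were higher. All 17 hepatocyte markers were then lower. The part of these cells in the results below was not tested, and in bulk liver fewer cells of a type and less RNA per cell cannot be told apart.

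Promoter sequence is shown first for the genes that bear on the comparison, taken from RefSeq on GRCm38.p6. Of the 10 genes, 8 had a promoter window there, 250 bases before to 50 after the annotated start. These were Asns, Mthfd2, Pck2, Phgdh, Psat1, Psph, Shmt2 and Slc3a2. The windows were searched on both strands for TGATGNAA, the core of a C/EBP-ATF element, and for CCAAT, the box bound by NF-Y. Neither motif contains the other. TGATGNAA was in 3.97% of the 32851 windows of this length in the table, and among the 8 genes it was in Asns and Pck2. The 30 bases around each match are given 5′ to 3′ along the gene, with the match in capitals, beside those of Slc1a4 and Slc7a11, transporter genes described below. These were picked after their values were seen. In the transporter list 3 of the 24 genes with a window held the motif, the other being the light chain gene Slc7a7, whose matches are not printed.
Asns, chr6:7693214-7693243, minus strand: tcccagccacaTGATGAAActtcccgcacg
Pck2, chr14:55540152-55540181, plus strand: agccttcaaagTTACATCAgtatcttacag
Slc1a4, chr11:20332699-20332728, minus strand: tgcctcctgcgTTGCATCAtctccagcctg
Slc7a11, chr3:50443661-50443690, minus strand: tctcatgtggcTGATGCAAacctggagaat
Slc7a11, chr3:50443642-50443671, minus strand: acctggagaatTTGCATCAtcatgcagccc
The match began 23 bases before the start in Asns and 103 before it in Pck2, where it lies on the opposite strand. The 30 bases shown for Asns and Slc1a4 overlap an annotated exon, and those for Pck2 and Slc7a11 do not. The annotated Asns gene begins farther upstream, at base 7693254, so its match lies inside the annotated gene. In Slc7a11 the 2 matches began 66 and 47 bases before the start and face each other. CCAAT was in 37.4% of all windows and in 5 of the 8 genes. These were Mthfd2, Pck2, Phgdh, Psat1 and Psph. The 120 bases before the start are given for Psat1 and Shmt2, with CCAAT matches in capitals. Psat1 showed the largest increase of the 10 genes, and Shmt2 is the gene that fell. Psat1 has another annotated start, which is not printed and whose window held neither motif.
Psat1, chr19:15925060-15925179, minus strand: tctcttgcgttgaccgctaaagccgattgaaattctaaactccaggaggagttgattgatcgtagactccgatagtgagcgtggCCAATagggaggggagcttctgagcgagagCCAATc
Shmt2, chr10:127522445-127522564, minus strand: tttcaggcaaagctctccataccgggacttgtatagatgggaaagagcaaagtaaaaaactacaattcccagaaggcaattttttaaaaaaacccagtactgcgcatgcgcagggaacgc
The Shmt2 window held neither motif. A match describes the letters only, and a window without one says only that these letters are not in it.

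The 10 genes changed in opposite directions: 9 rose and Shmt2 fell, and in each of the 10 the 3 labelled knockout values lay outside the control range. That count comes from a fit of all 28532 genes detected in any library, because Aldh1l2 stayed under 1 TPM everywhere and Phgdh, Psat1 and Pck2 reached 1 TPM only in the labelled knockouts. In the same fit 44.3% of genes were higher and 5.7% lower. With median-of-ratios scaling of that fit 8 of the 10 were higher and 1 lower, against 20.6% and 17.8% of all genes. Among the 12796 genes past the filter, where 9 of the 10 could be tested, 8 were higher and 1 lower as deposited. There 74.5% of genes were higher and 10.7% lower, and groups did not overlap in 75.5% upward and 11.3% downward, so the share of 8 in 9 is close to that of all genes. Of these 9, median-of-ratios scaling left 7 higher and 1 lower, against 36.2% and 35.6% of all genes. Quantile normalization left 6 higher and 1 lower, against 35.3% and 35.4%. Phgdh, Psat1 and Pck2 are 3 of the genes called higher in each of these filtered counts. They could be tested there only because they were higher in the labelled knockouts, so those counts favour a rise. The 10 genes together held 142 to 161 TPM in controls and 419 to 512 TPM in the labelled knockouts. Shmt2 made up 70.6% to 76.3% of that sum in controls and 12.9% to 18.2% in the labelled knockouts, while Slc3a2 made up 17% to 19.1% and 58.9% to 62.1%.

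**Figure D1:**
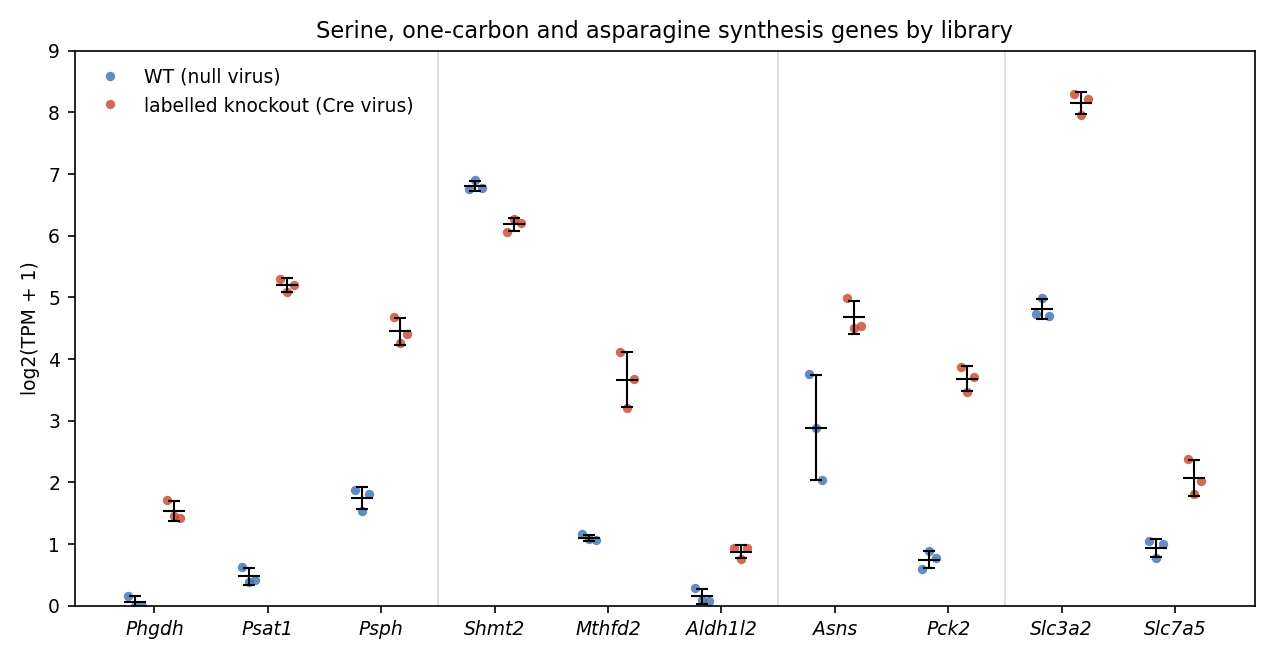
Each point is 1 library, on a log2(TPM + 1) axis, for the 10 genes in order of their role; blue is WT, red is the labelled knockout, and the black marks are the mean ± SD of the 3 log2 values. The groups do not overlap for any of the 10 genes, and Shmt2 alone is lower in the labelled knockouts.

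All 3 genes of serine synthesis rose. Phgdh (ENSMUSG00000053398, GRCm38 chromosome 3, 98313170 to 98339990, minus strand) encodes the dehydrogenase of the first step. It was at 0.12 TPM in 1 control and listed at 0 in the other two, and at 2.28, 1.75 and 1.69 TPM in the labelled knockouts. Its transcript was thus near the bottom of the scale in controls and stayed under 3 TPM in every library. The log2 fold change of Phgdh was 1.48 ± 0.11 (adjusted p = 1.8e-06, limma), and 1.17 with median-of-ratios scaling.

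Psat1 (ENSMUSG00000024640, chromosome 19, 15904678 to 15947337, minus strand) encodes the aminotransferase of the next step, which takes its nitrogen from glutamate. It was at 0.55, 0.3 and 0.34 TPM in controls and at 38.5, 32.9 and 36 TPM in the labelled knockouts. All 3 controls were under 1 TPM, and the labelled knockout values lay close together. This was the largest change of the 10 genes, with a log2 fold change of 4.72 ± 0.11 (adjusted p = 6.1e-09, limma), and it was 4.13 with median-of-ratios scaling.

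Psph (ENSMUSG00000029446, chromosome 5, 129765558 to 129787449, minus strand) encodes the phosphatase that releases serine. It was at 2.69, 1.91 and 2.49 TPM in controls and at 24.8, 18.1 and 20.2 TPM in the labelled knockouts, an 8.89-fold difference between the means. Its log2 fold change was 2.71 ± 0.14 (adjusted p = 1.8e-07, limma), and 1.93 with median-of-ratios scaling. Exons of Psph overlap those of Cct6a, a chaperonin gene at 49.3 to 64.5 TPM in controls and 101 to 109 TPM in the labelled knockouts. Reads from the shared stretch cannot be assigned with certainty, since no strand setting is given in the sources used here.

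The 3 serine genes also changed order. In controls Psph was the most abundant of them, and Psat1 stood at 0.137 to 0.204 of the Psph level. In the labelled knockouts Psat1 stood at 1.55 to 1.81 times Psph and at 16.9 to 21.3 times Phgdh. Phgdh, the entry step, was the lowest of the 3 genes in all 6 libraries. Their sum went from between 2.21 and 3.36 TPM to between 52.7 and 65.5 TPM.

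The mitochondrial one-carbon genes split. Shmt2 (ENSMUSG00000025403, chromosome 10, 127517123 to 127522444, minus strand), the serine hydroxymethyltransferase of mitochondria, was the most abundant of the 10 genes in controls, at 107, 119 and 108 TPM. It was at 66, 76.3 and 73 TPM in the labelled knockouts, below every control. Shmt2 fell by 0.63 ± 0.10 on the log2 scale (adjusted p = 2.1e-04, limma), and by 1.54 with median-of-ratios scaling. Because that scaling lowers most fold changes, it is no independent check of a fall. Shmt2 shares exon sequence with Ndufa4l2, which was at 2.58 to 3.85 TPM in controls and 1.77 to 2.61 TPM in the labelled knockouts.

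Mthfd2 (ENSMUSG00000005667, chromosome 6, 83305691 to 83325908, minus strand) encodes the dehydrogenase and cyclohydrolase that acts after SHMT2 and is better known from embryonic and proliferating cells than from adult liver. Its level was 1.23, 1.11 and 1.09 TPM in controls and 16.3, 8.26 and 11.8 TPM in the labelled knockouts. The controls were nearly equal, while the labelled knockout values were spread more widely. The means differed 10.6-fold, with a log2 fold change of 2.57 ± 0.20 (adjusted p = 5.5e-06, limma) and 1.89 with median-of-ratios scaling.

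Aldh1l2 (ENSMUSG00000020256, chromosome 10, 83487450 to 83534140, minus strand), the mitochondrial formyltetrahydrofolate dehydrogenase, was at 0.22, 0.07 and 0.05 TPM in controls and at 0.92, 0.69 and 0.91 TPM in the labelled knockouts. Both groups were under 1 TPM, so it was fitted only without the filter, where it rose by 0.73 ± 0.10 (adjusted p = 7.7e-04, limma) and by 0.47 with median-of-ratios scaling (adjusted p = 0.01). It was the least abundant of the 10 genes in the labelled knockouts.

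Asns (ENSMUSG00000029752, chromosome 6, 7675169 to 7693254, minus strand), asparagine synthetase, had the highest adjusted p of the 10 genes. It was at 12.5, 6.37 and 3.1 TPM in controls and at 30.8, 21.8 and 22.1 TPM in the labelled knockouts. The controls were spread more widely for their mean than those of Shmt2, Slc3a2, Psph or Mthfd2, yet all 3 lay below the labelled knockout. Asns rose by 1.79 ± 0.45 as deposited (adjusted p = 0.012, limma). It was no longer called after median-of-ratios scaling (0.95, adjusted p = 0.079), after quantile normalization (0.995, adjusted p = 0.066) and without labelled knockout replicate 1 (1.63, adjusted p = 0.0503).

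Pck2 (ENSMUSG00000040618, chromosome 14, 55540266 to 55551242, plus strand), the mitochondrial phosphoenolpyruvate carboxykinase, was at 0.51, 0.84 and 0.7 TPM in controls and at 13.6, 10.1 and 12.1 TPM in the labelled knockouts. No control reached 1 TPM and no labelled knockout library was under 10 TPM. Its log2 fold change was 2.94 ± 0.13 (adjusted p = 8.2e-08, limma) and 2.32 with median-of-ratios scaling.

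Both chains of the large neutral amino acid exchanger rose, from very different levels. Slc3a2 (ENSMUSG00000010095, chromosome 19, 8706882 to 8723369, minus strand) encodes the heavy chain, CD98, which carries several light chains to the cell surface. It was at 25.7, 30.8 and 24.8 TPM in controls and at 315, 247 and 296 TPM in the labelled knockouts. That is a 10.6-fold difference between the means and a log2 fold change of 3.35 ± 0.12 (adjusted p = 3.6e-08, limma), 2.45 with median-of-ratios scaling. Slc3a2 was the most abundant of the 10 genes in the labelled knockouts, ahead of Shmt2.

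Slc7a5 (ENSMUSG00000040010, chromosome 8, 121881150 to 121907694, minus strand) encodes LAT1, the light chain that carries leucine and other large amino acids. It was at 1.06, 0.71 and 1.01 TPM in controls and at 4.21, 2.49 and 3.08 TPM in the labelled knockouts. Slc7a5 rose by 1.13 ± 0.15 as deposited (adjusted p = 8.2e-05, limma) and by 0.55 with median-of-ratios scaling (adjusted p = 0.013). The call was lost with quantile normalization (0.28, adjusted p = 0.14).

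Slc3a2 pairs with light chains other than SLC7A5, and these were set beside it after their values were seen. The TPM of Slc7a5, Slc7a6, Slc7a7, Slc7a8, Slc7a10 and Slc7a11 summed to 2.85 to 3.24 in controls and 27.9 to 36 in the labelled knockouts. Slc3a2 was 7.93 to 10.8 times that sum in controls and 8.75 to 10.6 times in the labelled knockouts, so these ratios overlapped. Slc7a5 made up 24.9% to 34% of the light chain sum in controls and 8.92% to 11.7% in the labelled knockouts. Slc7a11, the cystine and glutamate exchanger, was listed at 0 in all 3 controls and was at 13.4, 10.8 and 9.29 TPM in the labelled knockouts. Slc7a8, which carries neutral amino acids, was at 0.67, 0.75 and 0.58 TPM in controls and at 10.1, 8.37 and 9.97 TPM in the labelled knockouts.

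**Figure D2:**
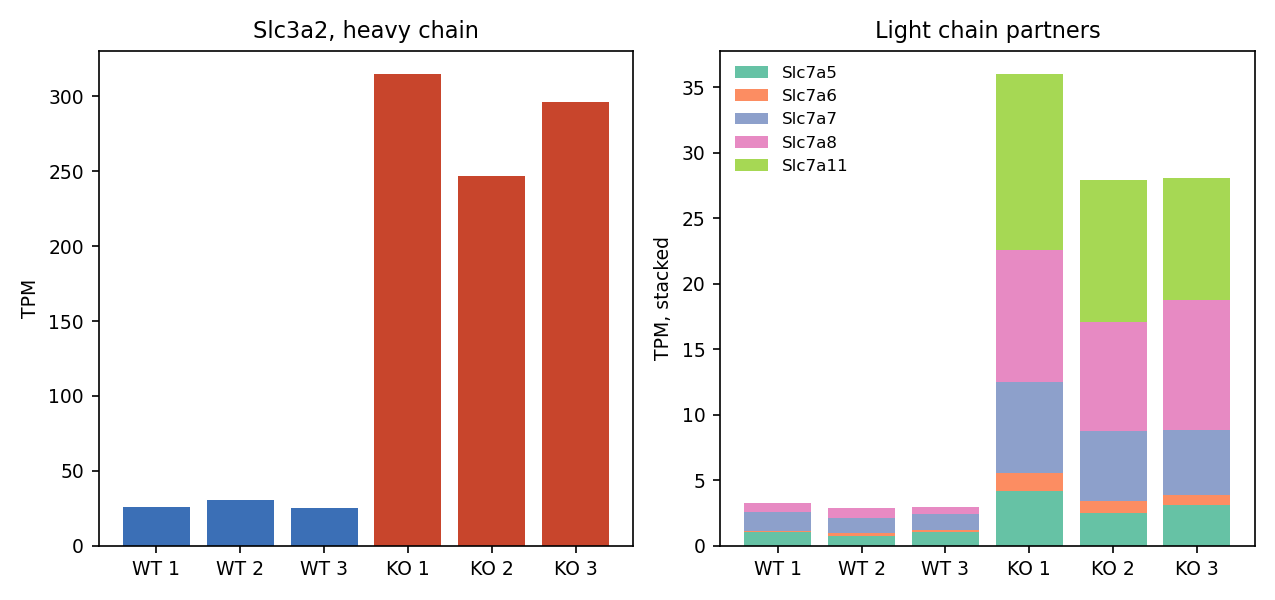
Bars give TPM per library, for Slc3a2 on the left and for 5 of its light chains stacked on the right (Slc7a10, at 0.01 TPM or below in each library, is not drawn). The heavy chain was at 24.8 to 30.8 TPM in WT and 247 to 315 TPM in the labelled knockouts (KO), and Slc7a11 appears only in the KO bars.

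The order of levels among the 10 genes was Shmt2, Slc3a2, Asns, Psph and Mthfd2 in controls, each separate from the next by its range. The ranges of Slc7a5, Pck2 and Psat1, next in order, overlapped from 1 to the next, and those of Aldh1l2 and Phgdh, the last, overlapped with each other but not with Psat1. In the labelled knockouts the order was Slc3a2, Shmt2 and Psat1, each separate from the next, then Asns and Psph with overlapping ranges, then Mthfd2 and Pck2, also overlapping, and Slc7a5, Phgdh and Aldh1l2, each separate.

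Within the labelled knockouts most of the genes shared an order between libraries. All 9 genes that rose were highest in replicate 1, and 8 of the 9 were lowest in replicate 2, the exception being Phgdh. The library factors of median-of-ratios scaling, which follow the typical gene, had the same order, at 1.42, 1.31 and 1.40 in replicates 1, 2 and 3. This order alone therefore does not set these genes apart, and its share over all genes was not counted. Shmt2 was lowest in replicate 1 and highest in replicate 2. Pck1 was likewise highest in replicate 2, at 265 TPM, against 57.9 TPM in replicate 1 and 85.6 TPM in replicate 3. Summed hepatocyte markers were at 39710, 41923 and 38588 TPM and summed macrophage markers at 1999, 1762 and 2226 TPM in replicates 1, 2 and 3. Proliferation markers were at 101, 138 and 111 TPM, highest in replicate 2 as the hepatocyte sum was. Sums of stellate or fibroblast, T and natural killer cell, neutrophil, B and plasma cell and bile duct markers were also highest in replicate 2. Endothelial markers, at 315, 272 and 330 TPM, were lowest there, as the macrophage sum was. The part of these cells in the differences between replicates was not tested.

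**Figure D3:**
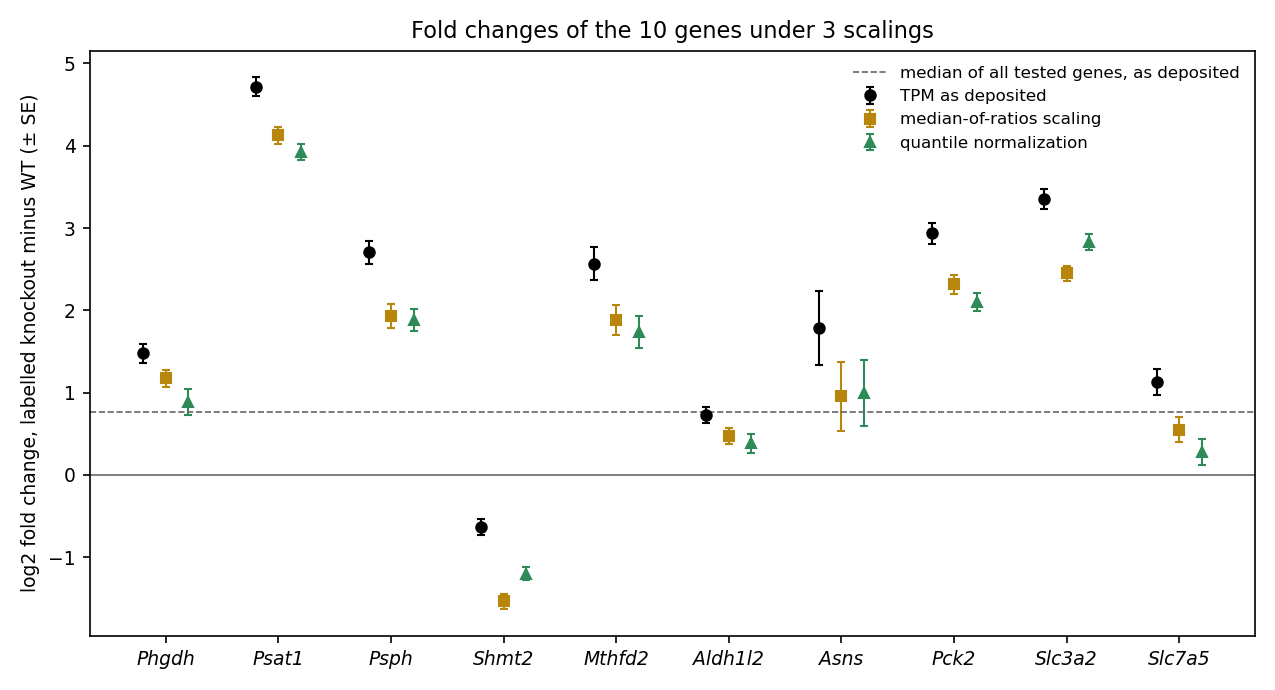
Points are log2 fold changes, labelled knockout minus WT, ± SE from limma, for TPM as deposited, median-of-ratios scaling and quantile normalization; Aldh1l2 comes from the fit without a filter. The dashed line is the median of all tested genes as deposited (0.77); Psat1 and Slc3a2 lie farthest above it and Shmt2 below 0 with every scaling shown.

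Several of these genes have a counterpart that does related work elsewhere in the cell or runs the opposite reaction, and the ratio of the 2 within a library is not affected by the scaling between libraries, apart from the added 1. The 7 pairs were tested by a two-sided exact permutation test. The groups did not overlap in any pair, and each p was 0.1, adjusted p = 0.1 over the 7, since this design allows no lower value. The test therefore cannot pass 0.05, and the sizes are given as measured.

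Of the 7 pairs, the phosphoenolpyruvate carboxykinases differed most. Pck1, the cytosolic enzyme of gluconeogenesis, fell from 1406 ± 180 to 136 ± 112 TPM (SD, n = 3), a log2 fold change of -3.66 ± 0.59 (adjusted p = 0.0023, limma). Set against Pck1, Pck2 was at 0.0004 to 0.00053 of its level in controls. In the labelled knockouts it was at 0.234, 0.038 and 0.141 of it. The log2 ratio of (TPM + 1) was 6.6 higher, and 6.05 to 7.33 higher with 1 library left out.

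Folate enzymes of the cytosol fell, and the mitochondrial enzymes stood higher against them even where they fell themselves. Shmt1, the cytosolic serine hydroxymethyltransferase, fell from 79 ± 0.915 to 34.7 ± 10.5 TPM (SD, n = 3), a change of -1.20 ± 0.18 (adjusted p = 2.4e-04, limma) and -2.10 with median-of-ratios scaling. Shmt2 was at 1.36, 1.49 and 1.38 times Shmt1 in controls and at 2.25, 1.63 and 2.61 times in the labelled knockouts. Mthfd1, the trifunctional cytosolic enzyme, changed by -1.04 ± 0.11 on the log2 scale (-1.93 with median-of-ratios scaling), from 65.7 ± 2.93 to 31.6 ± 3.66 TPM (SD, n = 3). Mthfd2 was at 0.0161 to 0.019 of the Mthfd1 level in controls and at 0.585, 0.235 and 0.369 of it in the labelled knockouts.

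Mthfd2l, a mitochondrial relative of Mthfd2 found in adult tissues, rose by 0.66 as deposited. It stood at 0.13 with median-of-ratios scaling (adjusted p = 0.33, limma) and at -0.19 with quantile normalization, and was called with neither. It was at 0.96, 1.19 and 0.71 TPM in controls and 2.22, 2.15 and 1.83 TPM in the labelled knockouts, and the log2 ratio of Mthfd2 to it was 1.91 higher. Aldh1l1, the cytosolic formyltetrahydrofolate dehydrogenase, is abundant in liver and was at 349 ± 61.8 TPM in controls and 266 ± 22 TPM (SD, n = 3) in the labelled knockouts. It fell by 0.38 ± 0.14 on the log2 scale (adjusted p = 0.028, limma), or -1.29 with median-of-ratios scaling, and the call as deposited was lost without the filter on low values (adjusted p = 0.068). Aldh1l2 was at 0.00368 of its level at most. Aspg, which breaks down asparagine, fell from 113 ± 4.58 to 49.4 ± 17 TPM (SD, n = 3), by 1.23 on the log2 scale, or -2.14 with median-of-ratios scaling. The ratio of Asns to Aspg went from 0.105, 0.0581 and 0.0276 in controls to 0.829, 0.317 and 0.525 in the labelled knockouts. The ratio of Slc7a5 to Slc7a8 went the other way, from 1.58, 0.947 and 1.74 to 0.418, 0.297 and 0.309.

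**Figure D4:**
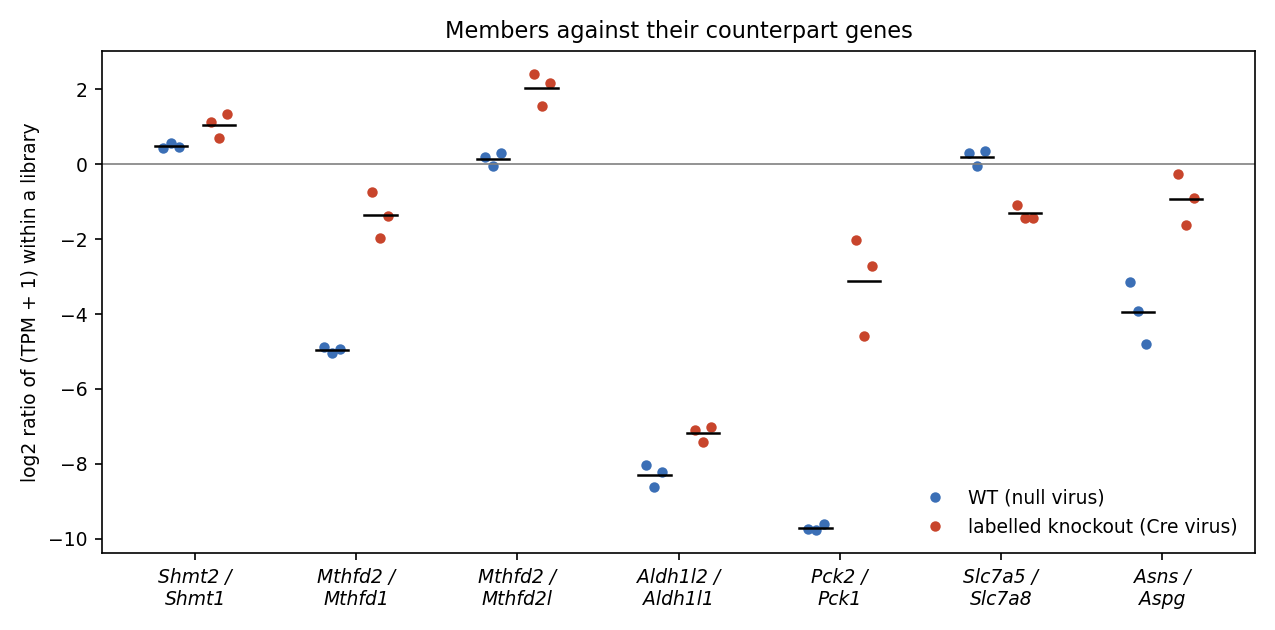
Each point is the log2 ratio of (TPM + 1) of a gene to its counterpart in 1 library, and black lines are means; blue is WT and red the labelled knockout. The groups do not overlap in any of the 7 pairs; the ratio is higher in the labelled knockouts in 6 and lower for Slc7a5 to Slc7a8.

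Neighbouring genes of the same pathways were read from 9 lists. Of 145 tested genes on them, 123 were called in either direction. Each count below can be set against the 74.5% higher and 10.7% lower of all genes as deposited and against 36.2% and 35.6% with median-of-ratios scaling.

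In the folate list 11 of 20 tested genes rose and 7 fell, and 6 of the 11 were also higher with median-of-ratios scaling. Its median log2 fold change was 0.66, under the 0.77 of all genes. With that scaling 9 were lower. Folr2, a folate receptor of macrophages, rose by 1.87 and Ggh, a folate hydrolase, by 1.21, or by 1.04 and 0.39 with median-of-ratios scaling. Fpgs, which adds the glutamate tail that keeps folate in the cell, fell by 1.46 (-2.35 with that scaling). Mthfd1l, the mitochondrial formate-releasing synthetase downstream of MTHFD2, is outside the naming rule and was picked after its values were seen. It was at 0.28, 0.4 and 0.19 TPM in controls and 4.34, 4.89 and 5.09 TPM in the labelled knockouts.

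Genes that use or break down serine and glycine moved both ways, with 10 of 23 higher and 11 lower and a median of 0.10. With median-of-ratios scaling 5 were higher and 15 lower, with a median of -0.81, and quantile normalization gave 5 and 14. Sptlc2 and Sptlc1, subunits of the serine palmitoyltransferase that starts sphingolipid synthesis, rose by 3.30 and 1.76 on the log2 scale, or by 2.42 and 0.90 with median-of-ratios scaling. Sptlc2 was at 12 to 15.5 TPM in controls and 125 to 163 TPM in the labelled knockouts. Gatm, which uses glycine to make a creatine precursor, rose by 1.82, or by 1.11 with that scaling. The glycine-related demethylating and oxidising enzymes Sardh and Pipox fell by 2.25 and 2.09, and the glycine methyltransferase Gnmt fell by 1.91.

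In the methionine cycle list 5 of 13 genes rose and 7 fell, with a median of -0.47. With median-of-ratios scaling 2 were higher and 9 lower, with a median of -1.38, and quantile normalization gave 1 and 9. Bhmt, which remethylates homocysteine with betaine, fell by 2.17 and Gamt, which makes creatine, by 2.08. Mat2a, the form of methionine adenosyltransferase found outside mature hepatocytes, rose by 1.35 on the log2 scale, or by 0.44 with median-of-ratios scaling. Mat2b and Ahcyl2 rose by 0.74 and 0.70 as deposited, but after median-of-ratios scaling they stood at -0.12 and -0.06 and were not called.

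Purine synthesis, a large user of folate-borne carbon, had 11 of 13 genes higher and 1 lower as deposited, and a median of 0.96. With median-of-ratios scaling 4 were higher and 5 lower, and quantile normalization gave 6 and 4. Atic, which adds a formyl carbon near the end of the pathway, rose by 1.69, Adss by 1.62 and Adsl by 1.47 on the log2 scale, or by 0.85, 0.73 and 0.61 with median-of-ratios scaling. Paics, which acts in the middle of the pathway, fell by 0.90 (-1.80 with that scaling), from 100.2 ± 12.1 to 53.2 ± 7.11 TPM (SD, n = 3).

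Genes supplying aspartate, asparagine and glutamate split into 5 higher and 6 lower of 14, with a median of -0.09. With median-of-ratios scaling 2 were higher and 12 lower, and quantile normalization gave 2 and 8. Asrgl1, an asparaginase, rose by 2.48. Slc25a12, a mitochondrial aspartate carrier, and Glud1, glutamate dehydrogenase, rose by 0.62 and 0.44 as deposited but were lower with median-of-ratios scaling (-0.24 and -0.47). With quantile normalization they stood at -0.19 and 0.10 and were not called. Oat, which links ornithine to glutamate, fell by 2.55, and glutamine synthetase gene Glul by 2.34.

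All 6 proline genes changed, and they kept their direction with both scalings. Of the 6, 3 rose, among them Aldh18a1 and Pycr1, which act in making proline, and 3 fell, all of which break proline down or oxidise its products. Prodh2 fell by 3.50, Prodh by 1.64 and Aldh4a1 by 0.63. With median-of-ratios scaling Prodh and Aldh4a1 stood at -2.53 and -1.54. Aldh18a1 and Pycr1 fall outside the naming rule because of their low mean and were picked after their values were seen, and both passed the filter only through the labelled knockouts. Aldh18a1 was at 0.26, 0.2 and 0.22 TPM in controls and 8.34, 5.05 and 6.48 TPM in the labelled knockouts.

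Around phosphoenolpyruvate, 7 of 12 genes rose and 4 fell. With median-of-ratios scaling 2 were higher and 6 lower, and quantile normalization gave 6 and 5. Pkm, the pyruvate kinase of non-liver tissues, rose from 3.62 ± 0.346 to 67.1 ± 9.19 TPM (SD, n = 3), Gpi1 rose by 1.43 and Pklr, the liver pyruvate kinase, by 1.17. With median-of-ratios scaling Gpi1 was at 0.51, and Pklr was at 0.26 and not called. With quantile normalization they were at 1.05 and 0.63, and both were called higher. The glucose-releasing enzymes G6pc and Fbp1 fell by 5.04 and 2.07 on the log2 scale, alongside Pck1.

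Of 23 tested amino acid transporter genes other than Slc3a2 and Slc7a5, 14 rose and 5 fell, and 12 of the 14 and all 5 did so with both scalings. In all, 9 were lower after median-of-ratios scaling and 11 after quantile normalization. Of the 23, 6 had under 1 TPM in every control and could be tested only because they were higher in the labelled knockouts. Slc1a1, a glutamate and cysteine transporter, was at 0.01 TPM or below in controls and at 42.8, 36.5 and 50.7 TPM in the labelled knockouts. Slc1a4, which carries serine and other small neutral amino acids, was at 0.87, 0.59 and 0.6 TPM in controls and 31.1, 28.4 and 37.1 TPM in the labelled knockouts. Slc1a2, a glutamate transporter of pericentral hepatocytes, fell by 3.73, and Slc38a4 and Slc38a3, abundant hepatocyte carriers of small neutral amino acids and glutamine, fell by 1.23 and 1.19 (-2.14 and -2.11 with median-of-ratios scaling).

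Among integrated stress response genes 15 of 23 rose and 0 fell as deposited (limma), and 0 were lower at an unadjusted p under 0.05. With median-of-ratios scaling 12 were higher and 6 lower. Atf4 itself was at 59, 47.8 and 37.5 TPM in controls and 129, 118 and 124 TPM in the labelled knockouts, a log2 fold change of 1.36 ± 0.15 (adjusted p = 2.2e-05, limma) and 0.46 with median-of-ratios scaling (adjusted p = 0.02). Ddit3, which encodes the stress factor CHOP, rose from 6.78 ± 2.04 to 116 ± 14 TPM (SD, n = 3). A second identifier named Ddit3 lies at the same place, so its reads are shared. Trib3, which restrains ATF4, rose by 2.76, Nupr1 by 5.86 and Atf3 by 4.02 on the log2 scale. Not every gene of the list moved this way. Chac1, which degrades glutathione, and the hormone gene Fgf21 were not called and are named after their values were seen. Chac1 was at 1.18, 4.33 and 4.42 TPM in controls and 2.1, 1.4 and 1.54 TPM in the labelled knockouts. Fgf21 was at 3.05, 3.47 and 1.97 against 0.82, 2.03 and 2.21 TPM. TGATGNAA was found in the promoter windows of 6 of the 20 genes of this list with a window. These were Atf3, Chac1, Fgf21, Nupr1, Trib3 and Vldlr, so both genes that rose and genes not called as changed carry it.

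**Figure D5:**
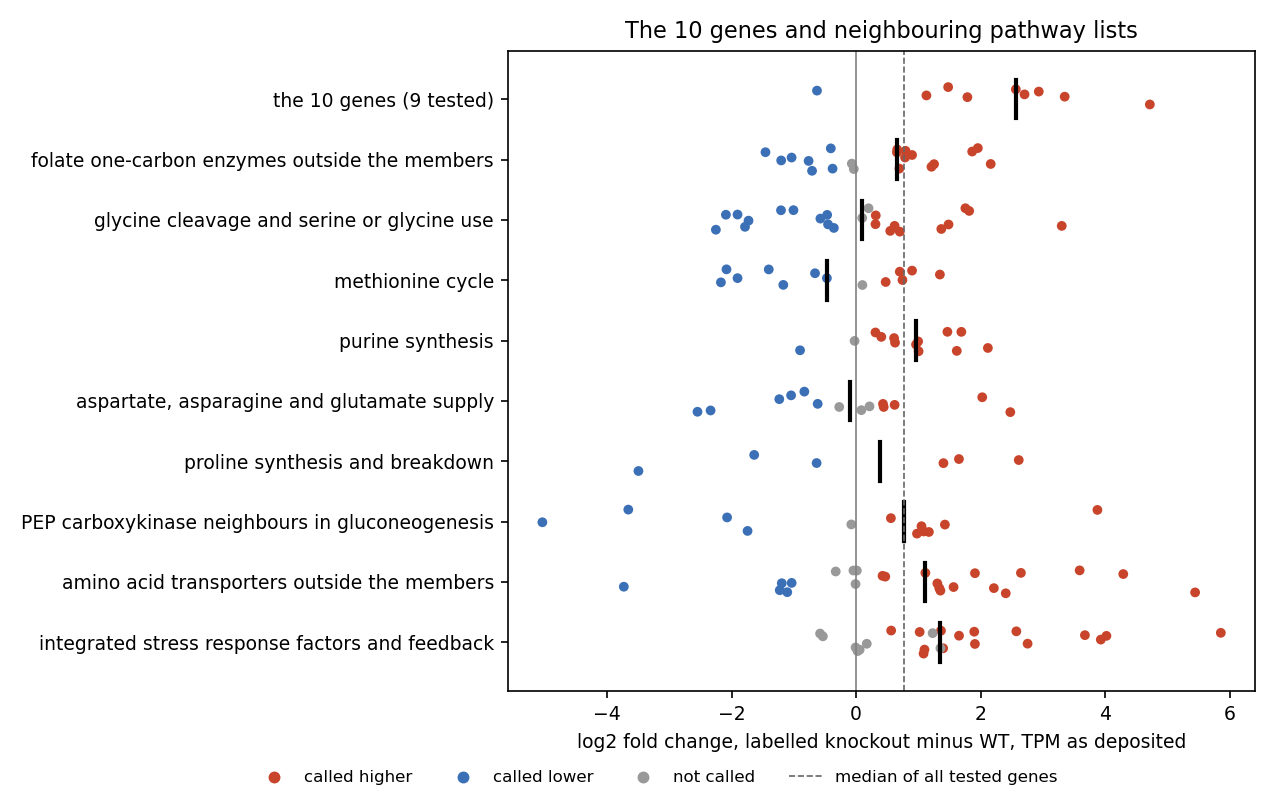
Each point is a tested gene, placed by its log2 fold change (labelled knockout minus WT, TPM as deposited) and coloured by its call at an adjusted p under 0.05; thick bars are list medians and the dashed line is the median of all tested genes (0.77). The top row shows the 9 tested genes of the 10, with Shmt2 at -0.63 and Psat1 at 4.72.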

How the data were processed

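Total RNA from liver was extracted with Trizol and sequenced on an Illumina instrument, per the labels' protocols. The authors deposited 1 table of TPM per gene for 6 libraries. STAR 2.6.1c, RSEM, edgeR and the build mm10 appear in the submitters' processing notes, with no role or order. No annotation release, strand setting or filter is given in the sources used here. TPM keeps no read numbers, so depth is unknown and precision rests on 3 libraries per group. Of 55536 identifiers 55450 matched GENCODE M21, and promoters came from RefSeq on GRCm38.p6.

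Values were compared as log2(TPM + 1) with limma 3.58.1 in R 4.3.3, with trend and robust variance and Benjamini-Hochberg adjustment at 0.05, over the 12796 genes that reached 1 TPM in 3 or more libraries. Simulated data with 10831 genes gave back 84% of genes changed by 1 and 96% of those changed by 2 on the log2 scale. Only genes with a control mean log2(TPM + 1) of at least 1 were simulated, which leaves out Phgdh, Psat1, Pck2 and Slc7a5. Only 100 genes of each size were changed, far fewer than were called in the real data, so these rates may not hold there. The members, lists and tests were chosen with earlier results of these data known. Genes named were the 10 members, Vmp1, the counterparts, Atf4, Ddit3, Trib3, and from each list up to 3 called genes with the largest rise and fall among those with a mean of at least 5 TPM. Where 2 identifiers share a symbol, that with the higher mean was used. Alternatives were pseudocounts of 0.1 and 5, no filter, a filter on the mean, 4 other scalings, no trend or robust variance, a threshold of 0.01, a replicate block and leaving out each library. Levels of genes whose exons overlap those of another gene (Psph, Shmt2, Aldh1l2 and Pck2 among the 10) are uncertain. Not every gene that the naming rule picks is reported here.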

Additional observations from a re-analysis of the deposited data

How the results depend on the processing

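Median-of-ratios scaling and quantile normalization moved the balance of calls over all genes, from 9537 higher and 1369 lower to 4634 and 4552 and to 4520 and 4534. Vmp1 changed sign with the former (-0.16), and the cause was not tested. Asns also lost its call at a threshold of 0.01 (adjusted p = 0.012, limma). Of the values and calls for the 10 genes and Vmp1, 177 kept direction and side of the threshold under the alternatives, 6 lost the call and 1 reversed. With 1 library left out, 7 to 8 of the 10 genes were higher and 1 lower, all genes called were 9187 to 9604 higher and 1259 to 1348 lower, and 116 to 122 pathway genes were called. In those refits 1 stress response gene was lower without WT replicate 1, WT replicate 3 or labelled knockout replicate 3. All 7 log2 ratios kept their direction under the alternatives run. With a filter on the mean Phgdh could not be tested, leaving 7 higher. The labels do not say whether replicate numbers mark paired samples. Deviations of same-numbered samples correlated at 0.08, 0.04 and -0.12. These show no strong shared effect but, with 3 libraries a group, cannot exclude pairing. With a replicate block 8 of the 10 genes were higher and 1 lower, and over all genes 9427 and 1333. With 3 libraries a group and no read numbers, genes under 1 TPM are the least certain.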
